A study of Homo sapiens with 24 samples.

Results

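The genes described here are 10 genes of the smooth muscle contractile apparatus: ACTA2, ACTG2, TAGLN, CNN1, SMTN, CALD1 and TPM2 of the actin filament, and MYH11, MYL6 and MYL9 of myosin. They were taken by symbol from a deposited table of 62757 genes, where each of the 10 matched a single entry. All 10 were among the 17724 genes with enough counts to be tested. The set was chosen with earlier results of these data in view, in which smooth muscle markers differed between the study's culture conditions. Differences between those conditions are therefore a description: levels, fold changes and counts of genes past a threshold are given, and no p-value is printed for them.

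RNA was sequenced from embryoid bodies, free-floating aggregates of cells, made from the human embryonic stem cell line HES3_NKX2-5GFP_NR2F2mCherry, whose reporters at NKX2-5 (GFP) and NR2F2 (mCherry) all groups carried. Genes were disrupted with CRISPR-Cas9: LHX2, ZNF503 or ZNF711, with TRAC, a T cell receptor gene, as the control target. Each line was differentiated with Wnt modulation for up to 14 days, either with retinoic acid at day 4 (the atrial condition, read here as AM) or without it (the ventricular condition, read as VM). This gave 8 groups of 3 libraries: AM TRAC, AM LHX2, AM ZNF503, AM ZNF711, VM TRAC, VM LHX2, VM ZNF503 and VM ZNF711. The labels name neither clones nor separate differentiations, so p-values measure the spread between these libraries, which may be partly technical. Embryoid bodies hold mixed cells, and fewer cells of a type cannot be told apart from less RNA per cell.

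In smooth muscle, myosin heavy chain filaments pull on filaments of alpha and gamma actin when the regulatory light chain of myosin is phosphorylated. Tropomyosin, caldesmon and calponin lie along the actin filament and tune its access to myosin, and transgelin and smoothelin bind actin as well. Serum response factor (SRF), with its partners myocardin (MYOCD) and the myocardin-related factors MRTFA and MRTFB, drives many of these genes through an element called the CArG box. Early cardiomyocytes make several smooth muscle proteins too, ACTA2 and TAGLN among them, and MYH11 is the member most restricted to mature smooth muscle.

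The upstream sequences of ACTG2, SMTN and ACTA2 are shown as examples of the SRF element or of a near match to it. TPM2 and MYL6, which also differed between groups, held neither form in the windows searched. A link between such an element and a difference between groups was not tested. They come from RefSeq (GRCh38.p14), read 5′ to 3′ on the gene's strand, with matches in capitals. ACTG2 (chr2:73892848-73892944, plus strand, bases 160 to 64 before the start) holds 2 CArG boxes, which begin 110 and 73 bases before the start. SMTN (chr22:31084876-31084995, plus strand, the 120 bases before one of its starts) holds 1 box, 44 bases before the start. ACTA2 (chr10:88952774-88952933, minus strand, the 160 bases before one of its starts) holds no exact box, and its capitals mark 2 stretches, 121 and 71 bases before the start, in which 1 of the 6 inner bases is not A or T.
ACTG2: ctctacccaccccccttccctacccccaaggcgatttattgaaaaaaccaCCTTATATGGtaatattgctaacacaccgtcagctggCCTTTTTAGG
SMTN: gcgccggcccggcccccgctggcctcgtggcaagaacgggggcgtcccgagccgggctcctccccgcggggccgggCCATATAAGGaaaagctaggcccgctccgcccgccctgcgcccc
ACTA2: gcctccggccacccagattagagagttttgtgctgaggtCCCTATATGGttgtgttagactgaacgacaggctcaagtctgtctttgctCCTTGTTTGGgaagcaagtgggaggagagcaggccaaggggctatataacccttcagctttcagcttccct

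Promoter entries were matched for 7 of the 10 members, with 15 starts among them, and the 250 bases before each start were searched. MYH11, TAGLN and MYL9 had no entry. An exact CArG box, which reads the same on both strands, was found in 2 of these 15 windows and in 1.16% of the 35116 promoters in the table. The form with 1 changed inner base was found in 2 of the 15, 1 each of ACTA2 and CALD1, and in 5.96% of all promoters. Neither AGGTCA nor its reverse complement TGACCT, the half-site letters of many nuclear receptors, was found in the 15 windows, against 12.1% of promoters. CATTCC or GGAATG, the letters bound by TEAD factors, was found in 4 of the 15, against 11.9% of promoters. Windows of 1 gene are not independent. A match is a run of letters, not a measured binding site.

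Libraries held 2899786 to 7438010 counts, with a median of 5113566.5. Counts of the targeted genes were checked first. LHX2 RNA lay at 0 to 34 counts in every library, too few to check its group. ZNF711 RNA lay at 31.2 to 55.8 CPM (the count scaled to library size) in AM ZNF711 against 47.4 to 60.3 in AM TRAC, and at 25.9 to 33.9 in VM ZNF711 against 34.6 to 48.0 in VM TRAC. ZNF503 RNA was higher in the libraries labelled ZNF503 than in TRAC, 255 to 367 CPM against 103 to 123 in AM and 19.1 to 45.3 against 8.82 to 16.2 in VM, so the direction of any ZNF503 comparison rests on the label. Libraries with the same replicate number deviated together in the pairs of groups compared. Adjusted p-values with that number as a block are given beside those without it. Cardiomyocyte markers summed to 11269 to 41840 CPM with none of the 10 at 0, and the 6 skeletal muscle markers to at most 5.72 CPM.

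Certain VM libraries stood apart. The sum of 10 endoderm and hepatic markers, among them AFP and APOB, was 8639 to 25382 CPM in 6 VM libraries: those numbered 3 of TRAC, LHX2 and ZNF503, and all 3 of ZNF711. It was 1728 to 4111 CPM in the other 6 VM libraries and 620 to 2973 CPM in the 12 AM libraries. The cardiomyocyte sum was lower in the same 6 VM libraries than in the other 6, with 11269 to 20156 against 35934 to 41840 CPM. Without overlap, the same 6 were higher in the sums of fibroblast markers (12140 to 17105 against 7293 to 10378 CPM), epicardial markers (471 to 702 against 295 to 370 CPM) and pluripotency markers (252 to 409 against 111 to 160 CPM). The same 6 also held a higher sum of pericyte markers (589 to 663 against 445 to 585 CPM). They were lower in the sum of 10 smooth muscle markers outside the members (384 to 561 against 608 to 954 CPM). That list, which holds MYOCD, DES, PLN and CASQ2, is not particular to smooth muscle. The part of cardiomyocytes in this sum was not tested. Results for the members that rest on those libraries are given with and without the 4 numbered 3 where that can be done. Those for other genes use all libraries.

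Levels of different genes were compared per kilobase of exon (CPM per kb), with the length taken over all annotated exons of a gene. It was 4609 bases for MYL6, 2976 for ACTA2 and 2821 for MYL9, and the lengths of the transcripts made were not measured. In AM the order of the means was ACTA2, MYL9, MYL6, TPM2, CNN1, CALD1, TAGLN, MYH11, SMTN and ACTG2, from 180 ± 54.6 CPM per kb (SD, n = 12 libraries of 4 targets) for ACTA2 to 1.04 ± 0.500 for ACTG2. The ranges of neighbours overlapped except between TPM2 and CNN1, between MYH11 and SMTN, and between SMTN and ACTG2. In VM the order was MYL9, ACTA2, MYL6, TPM2, TAGLN, CNN1, CALD1, SMTN, ACTG2 and MYH11, from 159 ± 40.8 CPM per kb for MYL9 to 0.142 ± 0.139 for MYH11. Only CALD1 against SMTN and SMTN against ACTG2 did not overlap there. ACTA2 exceeded MYL9 in 10 of 12 AM libraries, and MYL9 exceeded ACTA2 in 12 of 12 VM libraries. By this measure the alpha actin led in AM, the regulatory light chain led in VM, and the heavy chain moved from eighth to last. The order between genes rests on the lengths used. By mean CPM alone, MYL6 lay above MYL9 in AM (427 against 383) and above ACTA2 in VM (336 against 284).

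**Figure D1:**
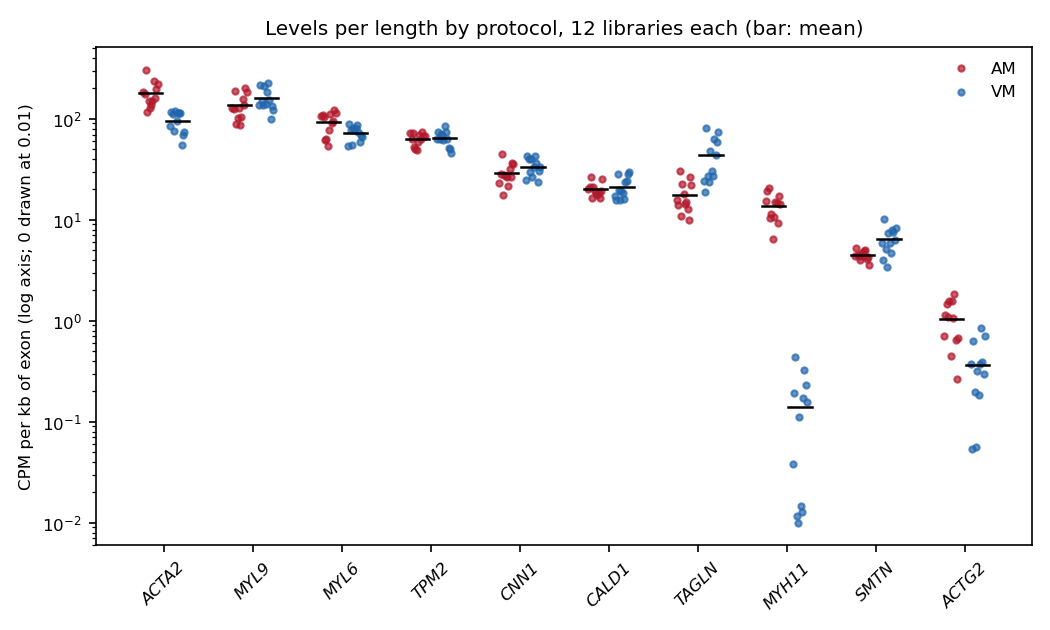
CPM per kb of exon on a log axis for the 10 genes, with 12 AM and 12 VM libraries as points and the mean as a bar; values of 0 are drawn at 0.01. MYH11 was the sole member whose AM and VM points did not overlap, while CALD1 and TPM2 had nearly the same mean in both protocols.

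Within a group, the coefficient of variation of CPM had its widest value for TAGLN in VM TRAC (83%), leaving ACTG2 and the VM values of MYH11 aside as too low. Deviations from the group means were shared by some members and not by others. Over the 24 libraries, the Pearson correlation of those deviations in log2 CPM was 0.89 for TAGLN with CALD1, 0.81 for ACTA2 with CNN1, 0.80 for ACTA2 with MYL9 and 0.78 for CNN1 with MYL9. TPM2 went the other way from TAGLN and SMTN, at -0.53 with each. These coefficients describe libraries that share replicate numbers and scaling, and carry no test.

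**Figure D2:**
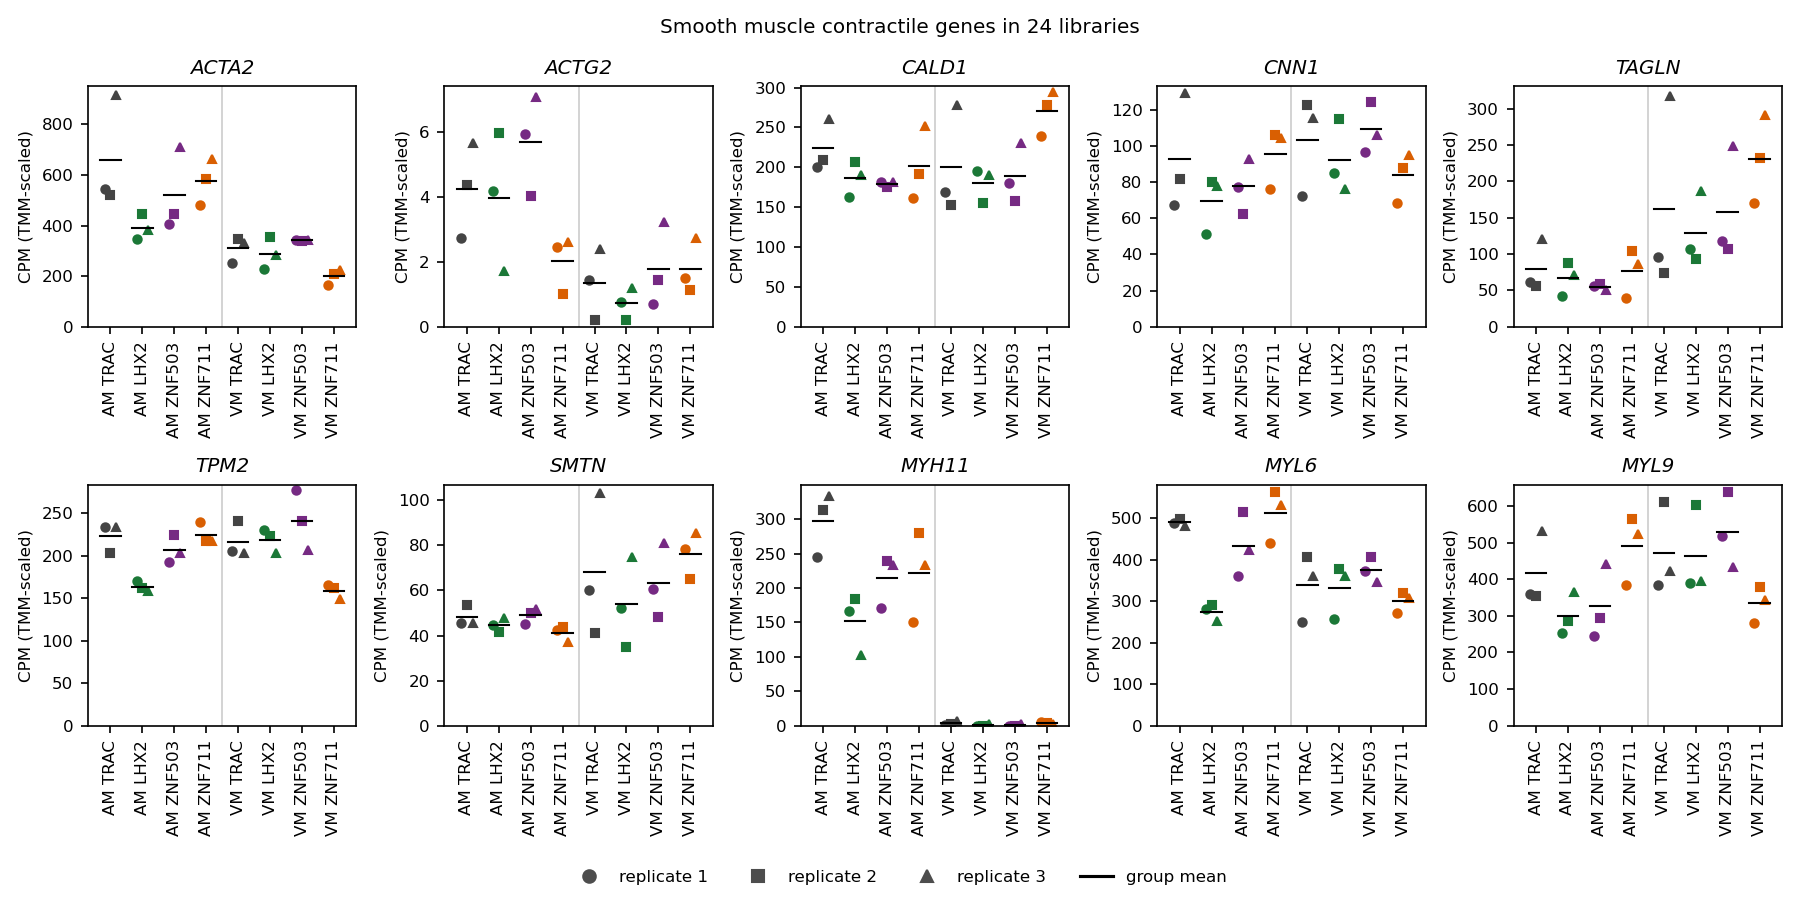
CPM on TMM-scaled library sizes (y axis, from 0) of each of the 10 genes in the 8 groups, with a marker per library by replicate number and the group mean as a bar. MYH11 was at 103 to 333 CPM in AM and at most 7.0 in VM, TAGLN was highest in the VM libraries numbered 3 and in VM ZNF711, and MYL6 was lowest among AM groups in AM LHX2.

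The first question was how the contractile genes differed between the retinoic acid and the other protocol. The log2 fold changes of MYH11, ACTA2 and ACTG2 were above 0 in AM in all 4 target groups, that of MYH11 by more than 50-fold. ACTG2 had few counts, and its value in ZNF711 was only 0.17. Those of TAGLN and SMTN were below 0 in all 4, but without a block TAGLN was called in none and SMTN in ZNF711 alone. With the 4 VM libraries numbered 3 left out, SMTN in LHX2 turned to 0.03 on the log2 scale and TAGLN in TRAC went from -1.04 to -0.11. CALD1, CNN1, TPM2, MYL6 and MYL9 differed in sign between target groups. A gene was called where the adjusted p of edgeR's quasi-likelihood test was below 0.05. In TRAC, 3 of the 10 members were called, all higher in AM (MYH11, ACTA2 and MYL6), against 11.3% of all tested genes. In LHX2, 3 were called (MYH11 and ACTG2 higher, TPM2 lower), against 8.56%. In ZNF503, 1 was called (MYH11), against 8.86%, and in ZNF711, 5 were called (MYH11, ACTA2, MYL6 and TPM2 higher, SMTN lower), against 13.2%. The median log2 fold change of the 10 members, AM over VM, was 0.10, -0.27, -0.15 and 0.34 in TRAC, LHX2, ZNF503 and ZNF711, beside medians of -0.03, 0.00, 0.00 and 0.00 over all tested genes. With the replicate block 4, 3, 4 and 7 members were called in the same order of targets, against 19.4%, 15.7%, 14.9% and 23.4% of genes. With a separate block in each protocol they were 5, 5, 6 and 8, against 23.7%, 19.5%, 18.9% and 27.8%. Without the 4 VM libraries numbered 3 and with the block they were 6, 5, 5 and 8, against 19.2%, 15.8%, 15.7% and 21.2%, and for ZNF503 without a block 2, against 9.18%. By CPM alone, the 3 AM and 3 VM values of 4, 5, 5 and 7 members did not overlap, against 26.1%, 23.9%, 23.5% and 32.9% of genes. The set was chosen from this contrast, so nothing is read from these counts.

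MYH11, the smooth muscle myosin heavy chain (chr16:15703172-15857033, minus strand, GRCh38), was counted at 245, 314 and 333 CPM in AM TRAC and 0.615, 3.09 and 7.0 CPM in VM TRAC. AM LHX2 held 167, 184 and 103 CPM and VM LHX2 held 0.188, 0 and 1.80 CPM. AM ZNF503 held 171, 239 and 234 CPM against 0.235, 0.204 and 2.79 in VM ZNF503, and AM ZNF711 held 150.1, 280.3 and 234 CPM against 5.19, 3.76 and 2.51 in VM ZNF711. Every AM library lay above every VM library. This held for none of the other 9 members, and for 2.69% of tested genes in the same direction. The log2 fold changes of MYH11, AM over VM, were 6.28 ± 0.56 (SE) in TRAC, 7.77 ± 0.70 in LHX2, 7.60 ± 0.66 in ZNF503 and 5.87 ± 0.57 in ZNF711, with group means of 297 against 3.57, 151 against 0.663, 215 against 1.08 and 221 against 3.82 CPM. In VM the gene had 143 counts over 12 libraries, and 5 of these libraries were at or under 3 counts, so the folds are imprecise. Without the 4 VM libraries numbered 3, which held the highest VM count in 3 of the 4 targets, the same log2 fold changes were 7.30, 10.24, 9.78 and 5.64. NDE1 lies across MYH11 on the other strand with overlapping exons, at 22.6% of its counts over all libraries, and strand use in the counting is not stated.

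ACTA2, the alpha actin of vascular smooth muscle (chr10:88935074-88991339, minus strand), was at 544, 521 and 914 CPM in AM TRAC and at 250.3, 348 and 330.2 CPM in VM TRAC. In ZNF711 it was at 482, 586 and 662 CPM in AM and at 165, 208 and 222 CPM in VM, the lowest VM values of the gene. ZNF503 gave 405, 445 and 712 CPM in AM against 342, 340.1 and 342 in VM, and LHX2 gave 345, 444 and 381 CPM in AM against 227, 353 and 285 in VM. AM and VM libraries did not overlap in TRAC, ZNF503 and ZNF711, and overlapped in LHX2. The log2 fold changes, AM over VM, were 1.09 ± 0.22 in TRAC, 1.54 ± 0.22 in ZNF711, 0.61 ± 0.22 in ZNF503 and 0.44 ± 0.22 in LHX2. The ZNF503 value was 0.31 without AM ZNF503 replicate 3. Its share of cardiac alpha actin (ACTC1), per length, had a median of 43.4% in AM and 21.3% in VM. Of its 50-base stretches 0.875% occurred in another gene.

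ACTG2, the gamma actin of visceral smooth muscle (chr2:73892314-73919865, plus strand), was barely counted, with 5 to 38 counts in AM libraries and 1 to 16 in VM libraries. In CPM the 12 AM values ran from 1.01 to 7.06 with a median of 4.10, and the 12 VM values from 0.206 to 3.22 with a median of 1.32. The groups did not overlap in TRAC, LHX2 and ZNF503, where the log2 fold changes were 1.60 ± 0.67, 2.38 ± 0.74 and 1.65 ± 0.67. In ZNF711 they overlapped, with a log2 fold change of 0.17 ± 0.70.

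TAGLN, or transgelin, an actin-bundling protein (chr11:117199321-117204782, plus strand), ran the other way. It was at 61.8, 55.4 and 120.3 CPM in AM TRAC and at 95.4, 74.1 and 317 CPM in VM TRAC. AM LHX2 held 42.7, 88.2 and 70.7 CPM against 106.6, 92.9 and 187 in VM LHX2. AM ZNF503 held 55.8, 58.4 and 50.3 CPM against 118, 107 and 249 in VM ZNF503. In ZNF711 the values were 39.1, 104 and 86.4 CPM in AM against 171, 232 and 291 in VM. AM lay below VM without overlap in LHX2, ZNF503 and ZNF711, and the TRAC groups overlapped. The log2 fold changes of the 3 that did not overlap were -0.93 ± 0.53, -1.53 ± 0.53 and -1.60 ± 0.53. With the 4 VM libraries numbered 3 left out they were -0.56, -1.05 and -1.40. PCSK7 overlaps TAGLN on the other strand, at 53.5% of its counts.

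SMTN, or smoothelin (chr22:31064105-31104757, plus strand), was at 37.0 to 53.5 CPM in the 12 AM libraries, a 1.45-fold range, and at 35.1 to 103 CPM in the 12 VM libraries. In ZNF711 its AM values of 42.3, 43.7 and 37.0 CPM lay below its VM values of 78.4, 65.1 and 85.5 CPM, with a log2 fold change of -0.89 ± 0.26. In TRAC, LHX2 and ZNF503 the groups overlapped, with log2 fold changes of -0.51, -0.28 and -0.37. With the 4 VM libraries numbered 3 left out these were -0.08, 0.03 and -0.16, and that of ZNF711 was -0.80. CALD1, or caldesmon (chr7:134744252-134970728, plus strand), had nearly equal medians of 191 CPM in AM and 193 in VM and overlapped in all 4 targets. In ZNF711 its log2 fold change, AM over VM, was -0.43 ± 0.19.

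TAGLN, CALD1 and SMTN shared a feature in VM. TAGLN was at 171 CPM or more in the 6 VM libraries with high endoderm sums and at 118 CPM or less in the other 6. SMTN was at 65.1 to 103 CPM in those 6 and at 35.1 to 60.5 CPM in the other 6. CALD1 was at 191 to 295 CPM in those 6 and at 153 to 195 CPM in the other 6, so these ranges overlapped. All 10 endoderm and hepatic markers were detected in both protocols. The fibroblast, epicardial, pericyte and pluripotency sums were higher, and the cardiomyocyte sum lower, in the same 6 libraries. The part of these cell types in the TAGLN, SMTN and CALD1 values was not tested.

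**Figure D3:**
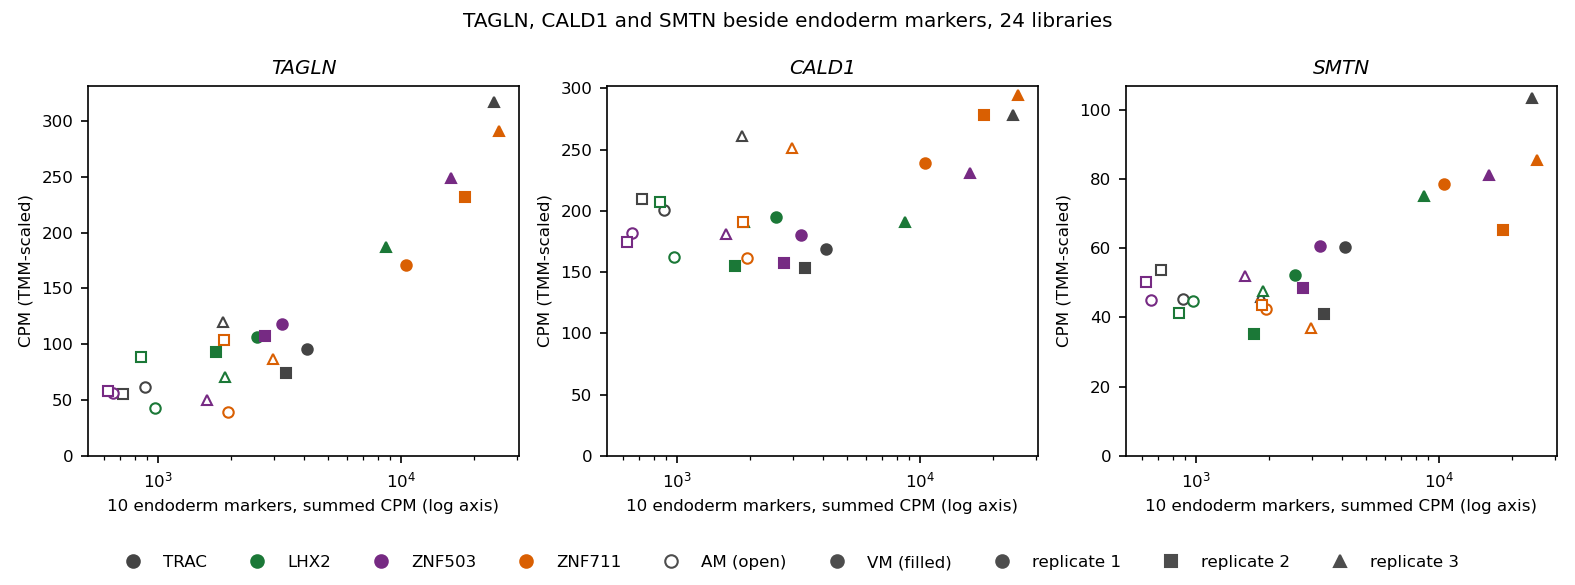
CPM of TAGLN, CALD1 and SMTN (y axes, from 0) against the summed CPM of 10 endoderm and hepatic markers (x axes, log scale) in 24 libraries, open symbols for AM and filled for VM. The 6 VM libraries with 8639 CPM or more of those markers held the 6 highest values of TAGLN and of SMTN.

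CNN1, or calponin (chr19:11538717-11550323, plus strand), had 51.1 to 129 CPM in AM and 68.7 to 125 CPM in VM. Its groups did not overlap in ZNF503 alone, with 77.4, 62.6 and 92.9 CPM in AM against 96.9, 125 and 106 in VM and a log2 fold change of -0.49 ± 0.24. TPM2, beta tropomyosin (chr9:35681992-35690121, minus strand), had the same median within 5 CPM in the protocols, 210.5 in AM and 206 in VM, yet split by target. It was lower in AM LHX2 (170, 162 and 159 CPM) than in VM LHX2 (229.9, 223 and 203 CPM) and higher in AM ZNF711 (240.1, 217 and 218 CPM) than in VM ZNF711 (165, 162 and 149 CPM). The log2 fold changes of TPM2 were -0.42 ± 0.12 and 0.50 ± 0.12.

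MYL9, the regulatory light chain of smooth muscle myosin (chr20:36541484-36551447, plus strand), split the same way. It was at 253, 285 and 364 CPM in AM LHX2 against 390.1, 602 and 396 in VM LHX2, and at 385, 565 and 522 CPM in AM ZNF711 against 280.2, 378 and 344 in VM ZNF711. The log2 fold changes of MYL9, AM over VM, were -0.62 ± 0.24 in LHX2 and 0.55 ± 0.24 in ZNF711, without overlap in either. Leaving out VM LHX2 replicate 2 moved the LHX2 value to -0.38. In ZNF503 its AM values of 244, 294 and 442 CPM overlapped the VM values of 517, 637 and 433 CPM, with a log2 fold change of -0.69 ± 0.24. MYL6, the essential light chain made in smooth muscle and most other cells (chr12:56158161-56163496, plus strand), was higher in AM in TRAC and in ZNF711. Its TRAC values were 489, 498 and 482 CPM in AM against 249, 407 and 361 in VM. The log2 fold changes of MYL6 were 0.53 ± 0.17 in TRAC and 0.77 ± 0.17 in ZNF711, and LHX2 and ZNF503 overlapped. The TRAC value was 0.35 without VM TRAC replicate 1. Of the 50-base stretches of MYL6, 0.854% recur in MYL6B, which lies across it on the same strand with overlapping exons. MYL6B was at 12.1% of the counts of MYL6. SMARCC2 overlaps MYL6 on the other strand, at 46.2% of its counts.

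**Figure D4:**
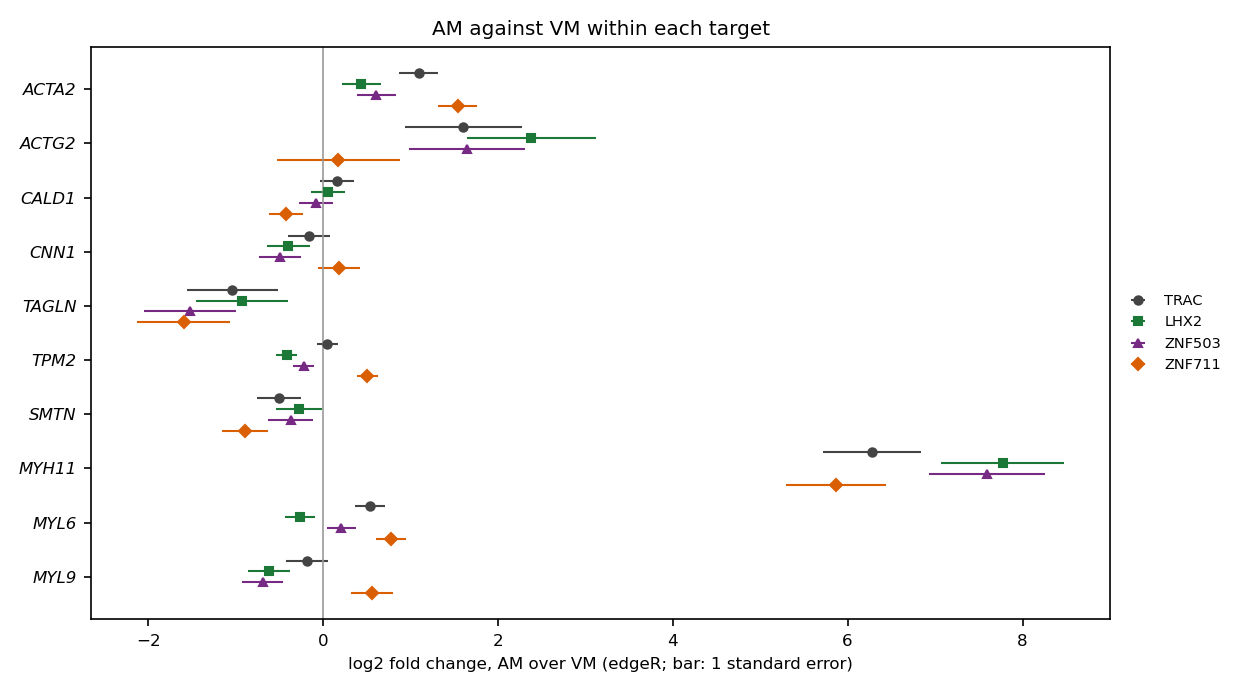
Log2 fold change, AM over VM, of the 10 genes within each target, from edgeR with a mean per group; bars are 1 standard error. MYH11 lay between 5.87 and 7.77 in all 4 targets, TPM2 and MYL9 below 0 in LHX2 and above 0 in ZNF711, and TAGLN and SMTN below 0 in all 4, though without the 4 VM libraries numbered 3 SMTN in LHX2 was 0.03 and TAGLN in TRAC -0.11.

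The comparisons with TRAC share their control libraries within a protocol. The next question was whether disrupting LHX2 changed these genes in AM cultures. In the fit without a block all 10 members had a log2 fold change below 0 in AM LHX2 against AM TRAC, from -0.98 to -0.11 with a median of -0.43, beside a median of 0.00 over all genes tested, of which 50.2% were below 0. The actin ACTA2, the tropomyosin TPM2, the heavy chain MYH11 and the light chain MYL6 lay wholly below TRAC. That is 4 of 10 members, against 9.72% of tested genes. Without the replicate block edgeR called no member (0% of all genes, 0 of 17724, with 4 members at an unadjusted p under 0.05). With the block it called ACTA2, TPM2 and MYL6 lower, 3 of 10, against 1.13% of genes. MYL6 was already known as a leading gene of this comparison, and without it 2 of 9 were called.

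MYL6 was at 282, 291 and 251 CPM in AM LHX2. The other AM libraries held 489, 498 and 482 CPM (TRAC), 361, 515 and 422 (ZNF503) and 441, 564 and 531 (ZNF711). All 3 AM LHX2 values lay below the other 9 AM libraries, with a log2 fold change against TRAC of -0.84 ± 0.17, or -0.84 ± 0.12 with the block. TPM2 was at 170, 162 and 159 CPM, below the 234.5, 203.5 and 234 of the AM TRAC libraries, with a log2 fold change of -0.45 ± 0.10 with the block (edgeR adjusted p = 0.0245, and 0.346 without the block). ACTA2 was at 345, 444 and 381 CPM against 544, 521 and 914, a log2 fold change of -0.74 ± 0.16 with the block (edgeR adjusted p = 0.0286, and 0.392 without it). In AM TRAC the third library was well above the others, and leaving it out moved the unblocked log2 fold change of ACTA2 from -0.76 to -0.45. MYH11 was at 167, 184 and 103 CPM against 245, 314 and 333, and its log2 fold change of -0.98 ± 0.42 was not called with the block (edgeR adjusted p = 0.230) or without it (0.604). With a separate block in each protocol MYL9 was called as well, with a log2 fold change of -0.46 ± 0.11 (edgeR adjusted p = 0.0134), making 4 of 10, or 3 of 9 without MYL6, against 3.11% of genes. Without the 4 VM libraries numbered 3 and with the block over all groups, 5 were called, MYH11 and MYL9 added (edgeR adjusted p = 0.0412 and 0.0121), or 4 of 9 without MYL6, against 3.98%. That setting was added after seeing the data. It leaves the compared AM libraries unchanged and alters only the shared fit and the genes tested.

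In VM, the log2 fold changes of ACTA2, TPM2 and MYL6 in LHX2 over TRAC were -0.10, 0.01 and -0.03. That of ACTG2 was -0.90 ± 0.76, at 4, 1 and 6 counts in VM LHX2. Members' log2 fold changes other than those of MYH11 and ACTG2 lay between -0.34 and 0.01, no group of 3 lay wholly apart (5.12% of genes did), and edgeR called none without a block (0%), with the block (0.00564%) or with a block in each protocol (0.0451%). At an unadjusted p under 0.05 there was 1 member, MYH11, in each of the first 2 fits, and DESeq2 called 0. MYH11 had 1, 0 and 9 counts in VM LHX2 and 3, 15 and 47 in VM TRAC, and no fold is given at such counts. For MYL6 the difference between the AM and VM effects of LHX2 was -0.80 ± 0.24 on the log2 scale. This difference contains the AM comparison in which MYL6 was already known, so it is a description and no p-value is printed for it. It was not called without the block or with it, and was called with a separate block in each protocol, as were 0.0508% of genes. Without the 4 VM libraries numbered 3 and with the block it was -0.78 and was called, as were 0.0273% of genes. For the other 9 members no such difference was called in these 3 fits.

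In libraries labelled ZNF503, no member was called against TRAC in AM or in VM, in edgeR without a block, with the block or with a block in each protocol, or in DESeq2. The background was 0%, 0.00564% and 0.0564% of genes in AM and 0% in VM. At an unadjusted p under 0.05 there were 0 members in either protocol without the block and 2 in AM with it. In AM the 3 values of MYH11 (171, 239 and 234 CPM) and of CALD1 (182, 175 and 181 CPM) lay below the 3 of TRAC, with log2 fold changes of -0.47 ± 0.41 and -0.32 ± 0.19. These are 2 of 10 members, against 4.01% of genes lower in this way, and the adjusted p of edgeR was 1 for both. Without AM TRAC replicate 3 that of CALD1 was -0.19. In VM no group of 3 lay apart, against 4.32% of genes. Log2 fold changes of members other than MYH11 in VM ran from -0.11 to 0.37, the highest being that of ACTG2 at 3 to 15 counts.

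Disrupting ZNF711 had no called effect on the members in AM in edgeR without a block, with the block or with a block in each protocol (0%, 0.0395% and 0.53% of genes), or in DESeq2. No member had an unadjusted p under 0.05 in the first 2 fits. ACTG2 (2.45, 1.01 and 2.60 CPM against 2.71, 4.37 and 5.65) and SMTN (42.3, 43.7 and 37.0 CPM against 45.4, 53.5 and 45.7) lay below TRAC without overlap, 2 of 10 members against 6.13% of genes. Their log2 fold changes were -1.07 ± 0.66 and -0.23 ± 0.26, and the adjusted p of edgeR was 1 for both.

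In VM, ACTA2, TPM2 and MYL9 lay wholly below TRAC in the ZNF711 libraries, 3 of 10 members against 4.72% of genes. ACTA2 was at 165, 208 and 222 CPM against 250.3, 348 and 330.2. TPM2 was at 165, 162 and 149 CPM against 205, 241 and 204, and MYL9 at 280.2, 378 and 344 CPM against 384, 610 and 423. Without the block edgeR called no member, against 0.0169% of genes, with 4 members at an unadjusted p under 0.05. With it, ACTA2 fell by 0.64 ± 0.16 (edgeR adjusted p = 0.0414) and TPM2 by 0.45 ± 0.10 (0.0174) on the log2 scale, 2 of 10 members against 2.27% of genes. With a separate block in each protocol, MYL9 at -0.48 ± 0.11 (edgeR adjusted p = 0.00502) and CALD1 at 0.48 ± 0.13 (0.0166) were called too, 4 of 10 against 8.38%.

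VM ZNF711 is the group in which all 3 libraries held high endoderm and low cardiomyocyte sums, and in VM TRAC only the library numbered 3 did. The comparison was therefore repeated without the 4 VM libraries numbered 3. With the block, TPM2 stayed lower at -0.45 ± 0.12 (edgeR adjusted p = 0.00427), MYL9 was called at -0.58 ± 0.13 (0.00229) and CALD1 at 0.68 ± 0.13 (0.000178), while ACTA2, at -0.68, was no longer called (0.0530). That is 3 of 10 members, against 12.8% of genes, and without the block 1 of 10, against 4.83%. The remaining VM ZNF711 libraries held 10462 and 18338 CPM of endoderm markers against 4111 and 3360 in VM TRAC. The part of that difference in these results was not tested.

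The log2 fold change of MYL9 in ZNF711 over TRAC was 0.24 ± 0.24 in AM (edgeR adjusted p = 1) and -0.50 ± 0.24 in VM (0.530), neither of them called, and the VM value was -0.29 without VM TRAC replicate 2. The difference, 0.74 ± 0.34, was not called (edgeR adjusted p = 0.757, with 0.00564% of genes called, and 0.410 with the block, 0.0282%), but was called with a separate block in each protocol (0.00606, against 2.54%). In these 3 fits no other member was called for this difference, and none was called for the ZNF503 difference. Leaving out those 4 VM libraries and with the block, 4 members were called for the ZNF711 difference, against 6.01% of genes: MYL9 (0.83), TPM2 (0.46), SMTN (-0.74) and CALD1 (-0.84), with edgeR adjusted p of 0.00147, 0.0479, 0.0449 and 0.000715.

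**Figure D5:**
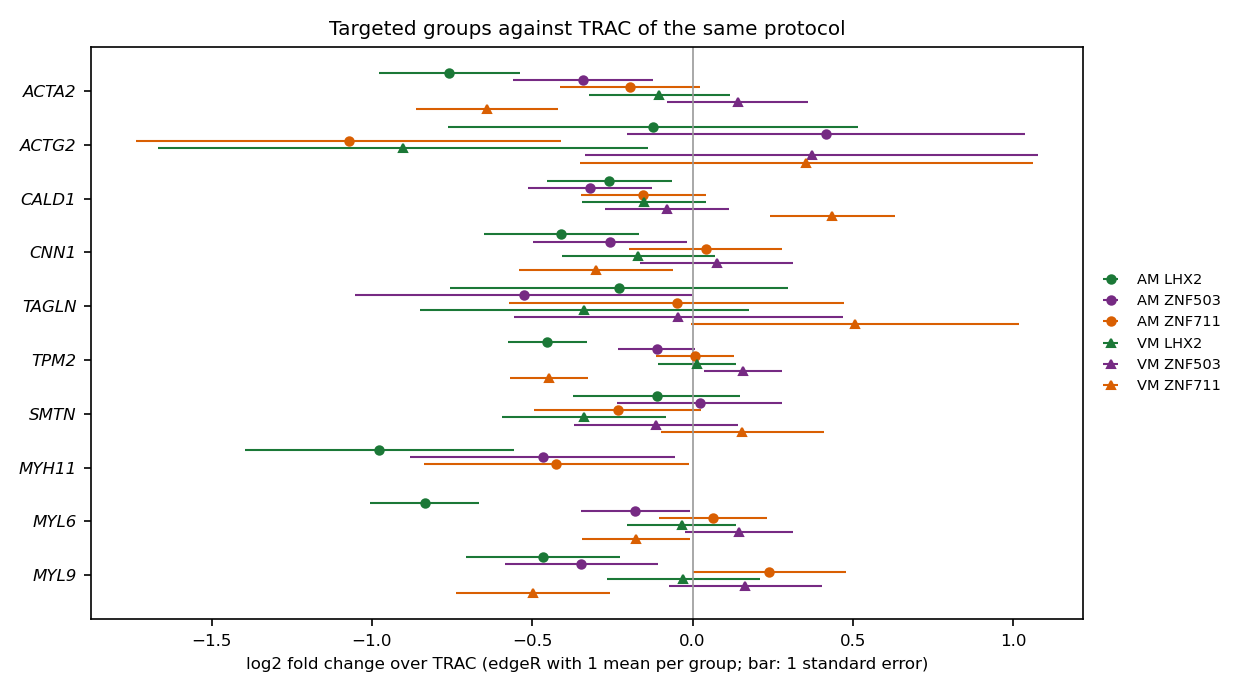
Log2 fold change of each targeted group over TRAC of its own protocol, from edgeR with a mean per group and no block; circles are AM, triangles VM and bars 1 standard error. MYH11 in VM is not drawn, since 5 of the 12 VM libraries had 3 counts or fewer; all 10 AM LHX2 points lay below 0.

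Regulators of the contractile genes were followed as a list of 15, all tested. In AM TRAC against VM TRAC, where 11.3% of all tested genes were called and their median log2 fold change was -0.03, 6 of the 15 were called higher and 0 lower, with a median of 0.43: the Notch receptor NOTCH3, its ligand JAG1, and the transcription factors FOXF1, TBX18, GATA6 and ZEB2. JAG1 was at 496 to 749 CPM in AM and 208 to 321 in VM, without overlap. The SRF partners differed less. MYOCD had a median of 313 CPM in AM and 319 in VM, SRF 151 and 130, MRTFA 77.3 and 94.1, and MRTFB 136 and 105. MYOCD fell in VM ZNF711 against VM TRAC by 0.79 ± 0.19 on the log2 scale with the block (edgeR adjusted p = 0.0388, and 0.198 without it). There, NOTCH3 rose by 0.47 ± 0.12 with the block (edgeR adjusted p = 0.0278). In that comparison 2.27% of all tested genes were called with the block. All VM ZNF711 libraries held low cardiomyocyte and high endoderm sums, and the part of these cell types in the MYOCD and NOTCH3 values was not tested. No regulator of the list was called in the other 5 comparisons with TRAC, with or without that block.

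Of 28 other smooth muscle genes, 6 were called higher in AM TRAC than in VM TRAC and 3 lower, with a median log2 fold change of -0.04, beside 11.3% of all genes called and a median of -0.03. The higher genes were MYLK, the kinase of the regulatory light chain, PPP1R12B, ITGA8, PRUNE2, SYNPO2 and FLNA, and the lower were MCAM, PGM5 and SYNM. The most abundant, TPM1 and FLNA, had medians of 2356 and 2155 CPM in AM and 2333 and 1635 in VM. SYNPO2, chosen after its values were seen, was at 192 to 289 CPM in AM and 7.10 to 37.8 in VM, the pattern of MYH11 on a smaller scale. None of the 28 was called against TRAC with or without the block. Among 14 tested non-muscle and paralogous genes, 1, MYH10, was called in AM TRAC against VM TRAC, beside 11.3% of all genes, with a median log2 fold change of -0.02. MYH11 reached a median of 11.9% of non-muscle MYH9 per length in AM and 0.0849% in VM. The most abundant of this list, ACTB and ACTG1, had medians of 4078 and 2909 CPM in AM and 2807 and 2165 in VM. CNN3 rose in VM ZNF711 against VM TRAC by 0.49 ± 0.11 on the log2 scale with the block (edgeR adjusted p = 0.0182), beside 2.27% of genes called. The part of the cell types that set VM ZNF711 apart was not tested.

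Of 13 tested striated muscle counterparts, TNNI3 was called higher and MYH7, MYL2, TNNI1 and LMOD2 lower in AM TRAC than in VM TRAC, beside 11.3% of all genes called, with a median log2 fold change of -0.80. The most abundant, MYH6 and ACTC1, had medians of 7624 and 2106 CPM in AM and 8165 and 1937 in VM. TNNT2, cardiac troponin T, fell in VM ZNF711 by 1.12 ± 0.24 with the block (edgeR adjusted p = 0.0261), beside 2.27% of genes called. That group also held low cardiomyocyte sums, and their part in this value was not tested. Of 12 SRF and MRTF targets outside the contractile set, 0 were called higher and 1 lower (FHL2) in AM TRAC than in VM TRAC, beside the same 11.3%, with a median log2 fold change of -0.29. Of this list ZYX and EGR1, the most abundant, had medians of 173 and 66.3 CPM in AM and 172 and 120.4 in VM. In the TGF-beta pathway list, TGFB2 was called higher in AM TRAC than in VM TRAC. The most abundant of its genes, LTBP1 and TGFB2, had medians of 337 and 279.7 CPM in AM and 418 and 239.5 in VM. With the block, SKIL rose in AM LHX2 by 0.48 ± 0.12 (edgeR adjusted p = 0.0378), beside 1.13% of genes called. In VM ZNF711, with the block, TGFBR1 rose by 0.55 ± 0.12 (edgeR adjusted p = 0.0137) and LTBP1 fell by 0.45 ± 0.11 (0.0315), beside 2.27%. The part of cell types in the VM ZNF711 values was not tested.

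Genes with the most similar pattern were found by the Pearson correlation of log2 CPM over all 24 libraries among 11428 genes. For MYH11 these were SHOX2, C7 and NR2F2, each at 0.98. NR2F2 encodes a transcription factor of atrial cells and is the locus of the mCherry reporter. For TAGLN they were ANKRD1, a stretch-responsive SRF target (0.95), MYORG (0.94) and GALM (0.93), and for CNN1 the muscle intermediate filament gene DES (0.88), HADHA and MAP4 (0.82 each). For TPM2 they were OBSL1 (0.84), TPM1 and ABCA2 (0.83 each), and for CALD1 NR1H3, CRIM1 and the matrix gene SPARC (0.86, 0.85 and 0.85). ACTA2 was nearest to EPHB2, FEZ1 and RIMS4 (0.89), MYL6 to PBX2 (0.91), MYL9 to CCDC69 (0.92), SMTN to ARFGAP1 (0.92) and ACTG2 to PCDH18 (0.84). The mean standardised profile of the 10 was nearest to NXN, RAPGEF1, TEAD3, TM7SF2 and ACTR1A, at 0.81 to 0.84. The libraries of both protocols share these coefficients, which carry no test.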

How the data were processed

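The authors deposited gene counts for 24 libraries. Per the submitters' processing notes, STAR and GRCh38 were used, in roles not given; the counting program, annotation and strandedness are not given in the sources used here. The labels give both polyA RNA and RiboErase depletion, so the RNA selection is not settled. No library was left out.

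Counts were fitted with edgeR 4.0.16 (R 4.3.3): genes kept by filterByExpr (17724), TMM scaling, robust quasi-likelihood with a mean for each of 8 groups, Benjamini-Hochberg adjustment over all tested genes in each of 13 comparisons (4 AM against VM, 6 with TRAC, 3 differences of effects), and a call below 0.05. The standard error is the log2 fold change divided by the square root of F. CPM use TMM-scaled library sizes, and log2 CPM a prior count of 2. Lengths, positions and overlaps are from GENCODE 29. Same-numbered libraries of the groups compared with each other deviated together, with correlations of 0.125 to 0.786 over 11428 genes. Other pairs of groups were not checked. These correlations are the only source of the pairing. Blocks for the number were fitted over all groups and within each protocol, with biological coefficients of variation of 25%, 16.9% and 14.3% for no block and these blocks.

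Members, gene lists and the rule for named genes were chosen with earlier results of these data known. That rule names all members, fold changes against TRAC where called or not overlapping, the 2 most abundant genes of each list, called list genes, SRF with its partners, and the genes most alike in pattern. The smallest depth was 2899786 counts, where 3 counts were taken as the limit of detection. Alternatives used DESeq2 1.42.0, other scaling and filters, fewer libraries and blocks. On simulated data for AM LHX2 against AM TRAC, the fit without a block called 59 of 100 genes changed by 1 on the log2 scale. It called 91 of 100 changed by 2, with 9 false calls in all. The simulated libraries held no effect shared by a replicate number and no other group difference, and all changes were increases. Recovery in the real data may therefore differ. Changes of both sizes, and smaller ones, can be missed, so a gene not called is not shown to be unchanged. A result for 1 gene of the TGF-beta list is not reported here.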

Additional observations from a re-analysis of the deposited data

Results flagged for a closer look

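TPM2 and MYL9 differed between AM and VM in opposite directions in the LHX2 and ZNF711 groups, with every AM library on the far side of every VM library. Such non-overlap, in either direction, held for 23.9% of tested genes in LHX2 and 32.9% in ZNF711. The share of genes with opposite directions was not computed. For TPM2 the log2 fold change, AM over VM, was -0.42 in LHX2 and 0.50 in ZNF711, and for MYL9 it was -0.62 and 0.55. Without a block TPM2 was called in both targets and MYL9 in neither. No p-value is given for the difference between the targets, because both genes were singled out by these same values. Without VM LHX2 replicate 2 the LHX2 value of MYL9 was -0.38. In the VM ZNF711 libraries endoderm, fibroblast, epicardial, pericyte and pluripotency markers were high, and their part was not tested.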

How the results depend on the processing

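The 34 fold changes of members that were called, with or without the block, or did not overlap between 2 groups kept their direction in each of their 645 refits, and in 536 they kept their side of the threshold. Other printed fold changes are not in that count, and SMTN in AM against VM LHX2 turned from -0.28 to 0.03 without the 4 VM libraries numbered 3. The counts of called members moved more, and the cause was not tested. With the replicate block over all groups 4, 3 and 2 members were called in AM against VM ZNF503, AM LHX2 against TRAC and VM ZNF711 against TRAC, in place of 1, 0 and 0. With the replicate block within each protocol the counts in AM against VM were 5 (TRAC), 5 (LHX2), 6 (ZNF503) and 8 (ZNF711), with 4 each for AM LHX2 and VM ZNF711 against TRAC, and 1 each for the LHX2 and ZNF711 differences of effects. The block changed no other count by more than 1.5 times. Settings that leave out VM libraries numbered 3 were added after seeing the data. Without the 4 VM libraries numbered 3, 2 members were called in AM against VM ZNF503 and 1 in VM ZNF711 against TRAC. With the replicate block as well, 6, 5, 5 and 8 were called in AM against VM in the same order of targets, 5 and 3 for AM LHX2 and VM ZNF711 against TRAC, and 1 and 4 for the LHX2 and ZNF711 differences.

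With no filter on low counts 4 were called in AM against VM ZNF503, 3 in AM LHX2, and 1 each in VM LHX2, VM ZNF503 and VM ZNF711 against TRAC. Fitting only the groups compared gave 1 and 2 in AM against VM LHX2 and ZNF503, and 2 in AM LHX2 against TRAC. DESeq2 called 3 in AM against VM ZNF503, and 1 each in AM LHX2 and VM ZNF711 against TRAC, and library size alone gave 2 in AM against VM ZNF503. Leaving out single libraries or replicate numbers gave 2 to 4, 1 to 3, 1 to 2 and 3 to 6 members in AM against VM, in the order TRAC, LHX2, ZNF503 and ZNF711. It gave 0 to 2 in VM ZNF711 against TRAC, with 2 (CALD1 and TPM2) without VM TRAC replicate 3, and 0 in the other 5 comparisons with TRAC. The low count of 1 in LHX2 came without either library numbered 1 or 2 of AM LHX2 or of VM LHX2, and without all libraries numbered 1 or 2. That of 3 in ZNF711 came without all libraries numbered 2. The share of all tested genes called in each of these settings is not printed here. The counts are therefore not read as results about the members.

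Of the 35 names of genes alike in pattern, 34 recurred with RLE scaling, 28 above a higher floor, 11 by Spearman correlation and 7 to 9 without a replicate number. ACTG2 and, in VM, MYH11 are limited by depth.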
